A study of Mus musculus with 6 samples.

Results

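The 10 genes examined here encode the enzymes that cut and rejoin antigen receptor genes: the recombinase subunits Rag1 and Rag2, the terminal transferase Dntt, and 7 core factors of non-homologous end joining, Dclre1c, Prkdc, Xrcc5, Xrcc6, Lig4, Xrcc4 and Nhej1. They were chosen by gene symbol from the 23793 rows of the authors' deposited table, where each symbol occurred in 1 row, and all 10 had been tested by the authors. RNA came from i660BM cells, a pro-B cell line of C57BL/6 mice that carries a doxycycline-inducible PU.1 and was grown with interleukin 7. There were 3 non-induced libraries and 3 induced ones, whose cells had 70 ng/ml doxycycline in the medium over 48 h. The table gave 1 FPKM value (fragments scaled by transcript length and sequencing depth) per gene and group and none per library, so the spread between libraries is not shown.

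V(D)J recombination assembles immunoglobulin and T cell receptor genes in developing lymphocytes. The RAG1 and RAG2 proteins form a complex that cuts DNA at recombination signal sequences, leaving hairpin-sealed coding ends. The Ku heterodimer (XRCC5 and XRCC6, also called Ku80 and Ku70) binds the ends and recruits the kinase DNA-PKcs (Prkdc), which activates the nuclease Artemis (Dclre1c) to open the hairpins. TdT (Dntt) adds untemplated bases, and ligase IV (Lig4) with XRCC4 and XLF (Nhej1) seals the joint. In pro-B cells the immunoglobulin heavy chain gene is rearranged first. PU.1 is an ETS family transcription factor, and ETS proteins bind DNA around a GGAA core.

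RefSeq promoter windows of build GRCm38.p6, 250 bases before to 50 bases after the annotated start, were found for 9 of the 10 genes (not Prkdc), Lig4 having 2 windows. The windows of the 4 genes with the largest log2 changes and of the 1 gene that fell are printed 5′ to 3′ on the gene's strand, with every GGAA or its reverse complement TTCC in capitals. They lie at chr2:101649483-101649782 (minus strand, Rag1), chr2:101624462-101624761 (plus, Rag2), chr19:41029025-41029324 (plus, Dntt), chr2:3423881-3424180 (plus, Dclre1c) and chr1:72307171-72307470 (plus, Xrcc5).
Rag1: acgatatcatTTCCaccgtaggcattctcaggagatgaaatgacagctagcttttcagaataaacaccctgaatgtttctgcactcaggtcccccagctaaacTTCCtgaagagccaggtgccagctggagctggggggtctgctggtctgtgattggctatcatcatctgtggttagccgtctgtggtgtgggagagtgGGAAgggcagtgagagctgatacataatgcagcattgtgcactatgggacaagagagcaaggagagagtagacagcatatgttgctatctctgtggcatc
Rag2: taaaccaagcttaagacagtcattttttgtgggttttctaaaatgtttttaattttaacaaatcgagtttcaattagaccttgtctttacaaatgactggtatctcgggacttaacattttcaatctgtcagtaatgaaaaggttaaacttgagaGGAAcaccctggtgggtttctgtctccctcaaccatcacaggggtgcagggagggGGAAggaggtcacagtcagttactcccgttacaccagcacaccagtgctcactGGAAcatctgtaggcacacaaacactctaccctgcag
Dntt: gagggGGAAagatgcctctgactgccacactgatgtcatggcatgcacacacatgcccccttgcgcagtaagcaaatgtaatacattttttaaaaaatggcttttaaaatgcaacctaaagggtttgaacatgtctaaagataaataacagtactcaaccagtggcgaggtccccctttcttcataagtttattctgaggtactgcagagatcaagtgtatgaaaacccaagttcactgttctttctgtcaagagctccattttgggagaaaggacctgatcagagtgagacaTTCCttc
Dclre1c: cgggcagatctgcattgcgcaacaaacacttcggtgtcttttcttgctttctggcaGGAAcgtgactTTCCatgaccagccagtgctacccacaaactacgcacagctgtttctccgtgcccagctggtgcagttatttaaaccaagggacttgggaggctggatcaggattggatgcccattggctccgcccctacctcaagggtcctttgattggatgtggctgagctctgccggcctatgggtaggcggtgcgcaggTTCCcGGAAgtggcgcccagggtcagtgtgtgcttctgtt
Xrcc5: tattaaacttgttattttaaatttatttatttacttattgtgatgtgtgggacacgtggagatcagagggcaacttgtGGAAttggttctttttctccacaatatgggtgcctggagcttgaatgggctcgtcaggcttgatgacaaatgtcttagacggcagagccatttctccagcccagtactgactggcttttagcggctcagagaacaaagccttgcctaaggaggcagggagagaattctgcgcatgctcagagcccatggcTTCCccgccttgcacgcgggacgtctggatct
The core occurred 3 times in the Rag1 window, 3 times in that of Rag2, 2 times for Dntt, 4 times for Dclre1c and 2 times for Xrcc5, counting both strands. All 10 member windows held it, as did 96.0% of 32851 windows of the same length, with a median of 3 per window, so the core alone did not set these genes apart. The longer string AGGAAGT, which contains the core, was searched on both strands and stood in the Rag1 window alone among the 10, on the opposite strand, starting 149 bases before the Rag1 start. It was present in 9.35% of all windows. These letters are a description of the sequence, and no binding was measured.

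Spi1, the gene of PU.1, was at 36.0 FPKM without and 246 FPKM with induction per the authors' deposited table. From the spacing of the lowest FPKM values the depth was put at about 119000000 fragments in all for non-induced and 122000000 for induced libraries. Of 10 pro-B markers 9 were tested, and their summed level was 2763 and 4190 FPKM in the 2 groups of the authors' deposited table, with Kit listed at 0 in both. Macrophage and granulocyte markers summed to 2.28 and 23.3 FPKM per the authors' deposited table, with Elane, S100a8 and S100a9 listed at 0 in both groups. The highest of them was Cd68 in non-induced cells (1.85 FPKM) and Lyz2 in induced cells (15.2 FPKM per the authors' deposited table). T cell markers, from the other lineage that uses these enzymes, summed to 284 and 227 FPKM per the authors' deposited table. Nearly all of that came from the signalling genes Lat (240 and 208 FPKM) and Zap70 (43.0 and 19.3 FPKM per the authors' deposited table). Of the other 10 T cell markers, Cd3e, Cd4 and Themis were listed at 0 in both groups, Cd3d had 0.294 and 0.164 FPKM without a call, and Cd5 had 0.138 and 0.219 FPKM without a test, per the authors' deposited table. Markers of later B cell stages summed to 5.02 and 6.88 FPKM per the authors' deposited table, mostly Cd74. The part of these markers in the results below was not tested. Doxycycline was given to all induced and to no non-induced cells, so effects of the drug and of PU.1 cannot be told apart. In RNA from whole cultures, a change in the share of cells that express a gene and a change in RNA per cell cannot be told apart either.

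The recombinase, terminal transferase, Artemis and ligase IV genes had the largest log2 changes, all positive, and the pair of Ku genes moved in opposite directions. A gene counted as called, higher or lower, where it had a test and the deposited q-value was under 0.05. So defined, 5 of the 10 members rose, Rag1, Dntt, Dclre1c, Lig4 and Xrcc6, and 1 fell, Xrcc5. Rag2, Prkdc, Xrcc4 and Nhej1 were not called. Of all 10657 rows tested there, 35.1% were called, 19.0% higher and 16.1% lower. The median log2 change was 0.45 over the members and -0.0068 over all tested rows, and 9 of the 10 members had a positive value. Changes of at least 1.5-fold were called for 4 members, Rag1, Dntt, Dclre1c and Lig4, against 1086 of all tested rows (10.2%). Members were chosen with earlier results known, and these counts are a description.

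**Figure D1:**
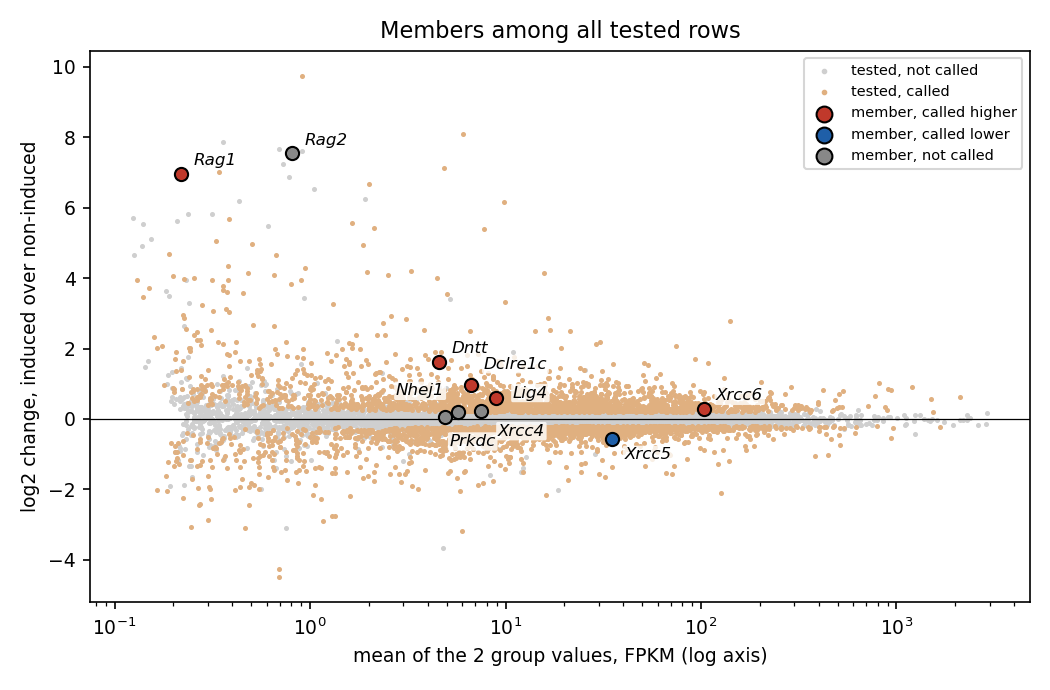
Each point is 1 tested row of the authors' deposited table, with the mean of the 2 group values (FPKM, log axis) against the log2 change of induced over non-induced cells; the 10 members are drawn large. Rag1 and Rag2 stand at the low-expression, high-change corner, at log2 changes of 6.96 and 7.55, and the other members lie between -0.56 and 1.63.

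Before induction the members spanned a wide range of abundance. Per length, Xrcc6 was the most abundant at 92.7 FPKM and Xrcc5 followed at 41.7 FPKM per the authors' deposited table. The next 5 were close together in non-induced cells, from Lig4 at 7.10 and Xrcc4 at 6.89 through Nhej1 at 5.34 and Prkdc at 4.82 to Dclre1c at 4.54 FPKM per the authors' deposited table. Dntt stood at 2.24 FPKM there, and Rag2 and Rag1 were near 0. With induction the order of the first 3 was kept, Dclre1c passed Xrcc4, Nhej1 and Prkdc, and Dntt passed Nhej1 and Prkdc. Without values per library, neighbours in this order could not be tested against each other. At 103 FPKM, the mean of its group values, Xrcc6 was above 91.5% of tested rows, and Rag1 at 0.219 FPKM was above 0.619% of them.

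**Figure D2:**
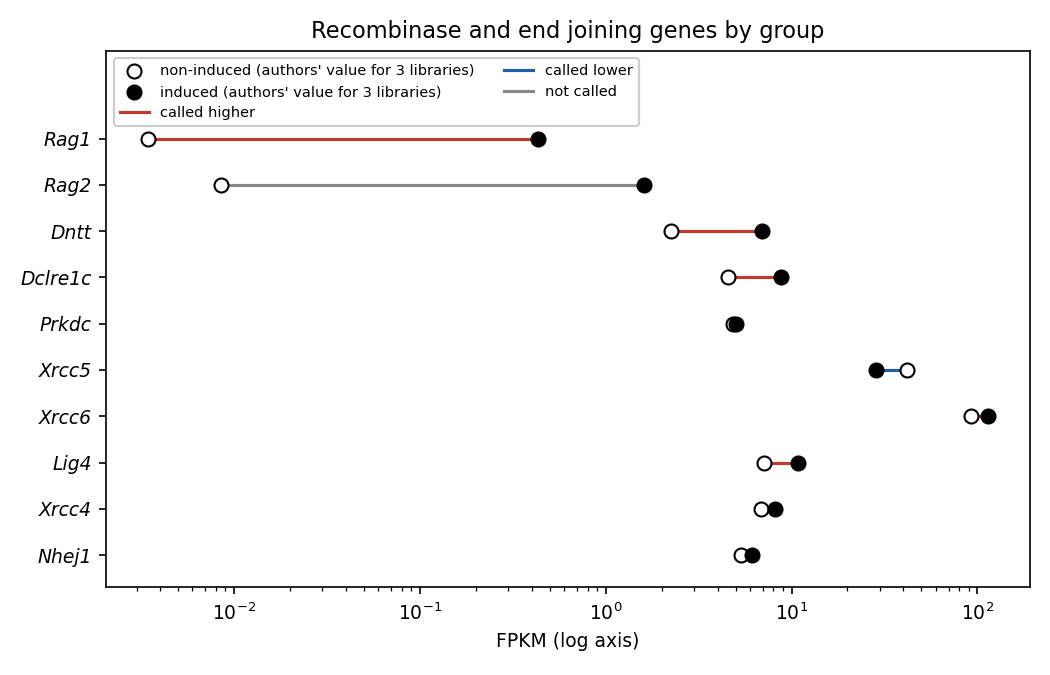
FPKM of the 10 members per the authors' deposited table (log axis), open circles for non-induced and filled circles for induced cells, 1 authors' value per group of 3 libraries; line colours give the call. Both recombinase genes start near 0 and end at 0.434 and 1.60 FPKM, and Xrcc5 is the 1 gene whose filled circle lies to the left.

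Rag1, the catalytic subunit of the recombinase, rose from almost no signal. It was at 0.00348 FPKM without and 0.434 FPKM with induction per the authors' deposited table, a log2 difference of 6.96 (implied standard error 1.45, q = 0.0102). The implied standard error is the deposited log2 change divided by the deposited test statistic. Rag2, the regulatory subunit, stood at 0.00853 and 1.60 FPKM per the authors' deposited table, a log2 difference of 7.55 (implied standard error 1.71). Rag2 was not called (deposited p = 0.0865, q = 0.181 per the authors' deposited table), although its log2 change was the larger of the pair. When the deposited test statistic (4.40 for Rag2 and 4.81 for Rag1) was read as a normal deviate and adjusted over all tested rows, both genes were called. In induced cells the Rag2 value per length was 3.69 times that of Rag1.

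The low starting values rested on very few fragments. With the annotated transcript lengths, 6608 bases for Rag1 and 3424 for Rag2, and the fragment step of each group, Rag1 corresponded to about 3 fragments over the 3 non-induced libraries and about 351 over the induced libraries. Rag2 corresponded to about 3 and 672. The ratio from these counts was 113 for Rag1 (95% exact counting interval 38.5 to 552) and 217 for Rag2 (74.0 to 1055). The intervals cover counting error only, without the spread between libraries, and the counts depend on the transcript length used. The lower bounds lay above 1 for both genes, but the fragments are pooled over libraries and are not replicates. How the induced fragments were spread over the 3 libraries is not known, and the deposited test did not call Rag2. Neither the size of either fold change nor its spread between libraries was fixed by these data.

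Rows with such a start, Rag1 and Rag2 included, were called about as often as not. Between 0 and 0.05 FPKM in non-induced and at 0.2 FPKM or more in induced cells there were 41 tested rows of the authors' deposited table, and 19 of them were called. Of all tested rows 19.0% were called higher. The 41 rows were picked for a rise in the same values that the test uses. The share called among them and the place of Rag2 among them are therefore a description only. The test statistic of Rag2 was exceeded by 12 of these rows, Rag1 among them, and all 12 were called. Calls did not follow the statistic closely in these rows: Mogat2 had 3.69 without a call and Eml1 had 0.56 with one. The 5 rows nearest to Rag1 in induced FPKM were I730030J21Rik, Lrrc25, Dlg2, Rpe65 and Rnase6. Of these, Dlg2 was called, at 0.0271 and 0.428 FPKM, and the other 4 were not, per the authors' deposited table.

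Both recombinase genes lie on chromosome 2 in the mm10 build, in the GENCODE M21 annotation. Rag1 is on the minus strand at 101638282 to 101649501, with 2 exons, of which 1 is coding. Rag2 is on the plus strand at 101624718 to 101632529, with 3 exons, of which 1 is coding. The genes are transcribed toward each other, their starts 24.8 kb apart. Rag2 shared its file locus with 1 other row, B230118H07Rik, which is annotated on the minus strand through Rag2 and, in some transcripts, back to the Rag1 start. Exons of that gene overlapped 208 of 3424 Rag2 exon bases and 80 of 6608 Rag1 exon bases. B230118H07Rik was not tested and was listed at 0.00354 and 0.0282 FPKM per the authors' deposited table, far below Rag2 in induced cells. The libraries were stranded per the labels, but whether the counting used strand is not given in the sources used here, so fragments of the overlap may have been assigned to either gene. Further out, Traf6, a ubiquitin ligase of innate signalling, rose from 15.4 to 18.4 FPKM (log2 0.26, q = 0.00953) per the authors' deposited table. Prr5l was listed at 0 and 0.00808 FPKM without a test, and Commd9 at 20.6 and 22.2 FPKM was not called, per the authors' deposited table.

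**Figure D3:**
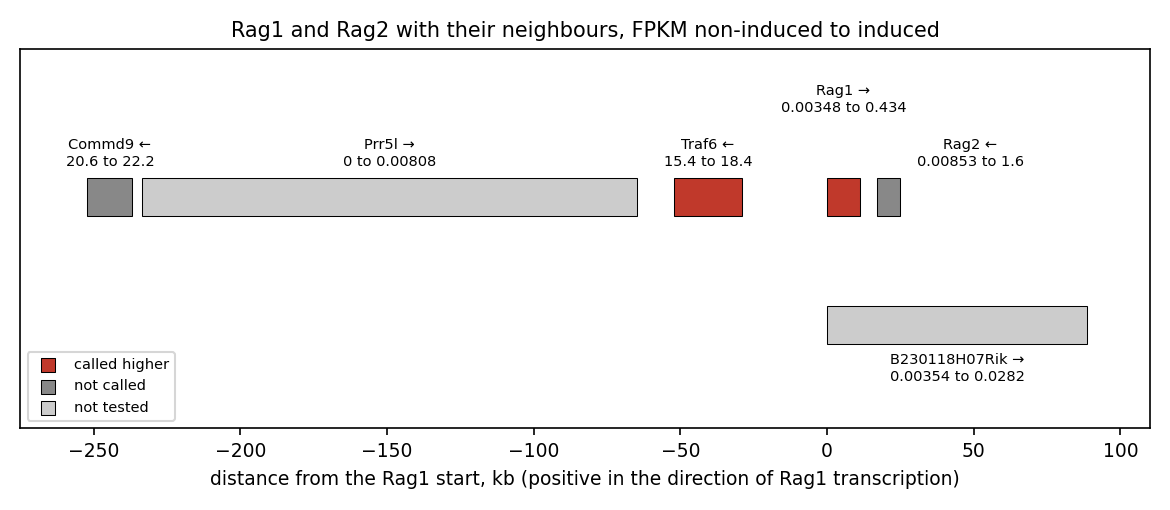
Gene spans (GENCODE M21) around the Rag1 start, with distance in kb on the horizontal axis, positive in the direction of Rag1 transcription; arrows give the direction of transcription, colours the call, and numbers the FPKM in non-induced and induced cells of the authors' deposited table. Rag1 and Rag2 go from below 0.01 to 0.434 and 1.60 FPKM. Of the flanking genes, Traf6 is called higher, from 15.4 to 18.4 FPKM, and Commd9, at 20.6 and 22.2 FPKM, is not called.

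Dntt rose about 3-fold and had the largest test statistic of the members, 8.78. It went from 2.24 to 6.90 FPKM per the authors' deposited table, a log2 difference of 1.63 (implied standard error 0.19, q = 0.000287). That q-value is the smallest in the table and is shared by 1855 tested rows in all. The 95% interval from the implied standard error ran from 2.40-fold to 3.97-fold. This interval and those given below read the test statistic as a normal deviate, which the deposited p-values do not follow closely. For Xrcc6, Xrcc4, Nhej1 and Prkdc the normal p was larger than the deposited Cuffdiff p (0.0393 against 0.0006 for Xrcc6). Intervals built on their implied standard errors are thus wider than that test implies. For Rag1 and Rag2 the normal p was the smaller. The log2 change of Dntt was larger in size than that of 97.8% of tested rows and its test statistic than that of 98.8%. Dntt maps to chromosome 19, 41029275 to 41059525, plus strand, with 12 coding exons. The related X family polymerases fill gaps at end joins in many cell types. Polm, which encodes polymerase mu, the closest relative of TdT, rose from 9.55 to 15.7 FPKM (log2 0.72, q = 0.000287) per the authors' deposited table, and Poll, which encodes polymerase lambda, had 12.3 and 10.8 FPKM without a call (q = 0.118).

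Of the hairpin-opening pair, the nuclease gene rose and the kinase gene was not called. Dclre1c went from 4.54 to 8.81 FPKM per the authors' deposited table, a log2 difference of 0.96 (implied standard error 0.24, q = 0.000287). Prkdc stood at 4.82 and 5.03 FPKM per the authors' deposited table, a log2 change of 0.06 with a 95% interval of -0.24 to 0.36 (q = 0.627). The 2 transcripts were thus at a similar level per length before induction (Dclre1c over Prkdc 0.942) and at a ratio of 1.75 after it. Their log2 changes differed by 0.89, with a combined implied standard error of 0.29 if the errors are independent. Dclre1c maps to chromosome 2, 3424131 to 3464130, plus strand, and shares its file locus with Suv39h2, a histone methyltransferase gene on the minus strand. Exons of the pair overlap over 357 bases, 3.83% of the Dclre1c exon bases. Suv39h2, at 7.04 and 6.54 FPKM per the authors' deposited table, had no call (q = 0.554). Prkdc maps to chromosome 16, 15637866 to 15842235, plus strand, and has 86 coding exons.

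The Ku genes went in opposite directions. Xrcc5, which encodes Ku80, fell from 41.7 to 28.4 FPKM per the authors' deposited table, a log2 difference of -0.56 (implied standard error 0.14, q = 0.000287). It was the 1 member that fell, and at 1.47-fold it lay just under a 1.5-fold difference. Xrcc6, which encodes Ku70, rose from 92.7 to 113.7 FPKM per the authors' deposited table, a log2 difference of 0.29 (implied standard error 0.14, q = 0.00281). When the test statistics (2.06 for Xrcc6 and -3.84 for Xrcc5) were read as normal deviates, Xrcc6 was no longer called, at an adjusted value of 0.177, whereas Xrcc5 was, at 0.00156. The FPKM ratio of Xrcc6 to Xrcc5 went from 2.22 to 4.01, and their log2 changes differed by 0.85, with a combined implied standard error of 0.20 if the errors are independent. The FPKM values of the pair summed to 134 and 142. Xrcc5 maps to chromosome 1, 72307421 to 72394952 (21 coding exons), and Xrcc6 to chromosome 15, 81987835 to 82040085, both on the plus strand. No other row shared the file locus of either.

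In the ligation complex, the ligase gene rose and its partners were not called. Lig4 went from 7.10 to 10.8 FPKM per the authors' deposited table, a log2 difference of 0.61 (implied standard error 0.15, q = 0.000287). Xrcc4, the scaffold that stabilises ligase IV, stood at 6.89 and 8.12 FPKM per the authors' deposited table (q = 0.0550), with a log2 change of 0.24 and a 95% interval of -0.09 to 0.56. The interval covers 0 although the deposited Cuffdiff p before adjustment was 0.0197, so it is wider than that test implies. Nhej1, a structural relative of Xrcc4, stood at 5.34 and 6.13 FPKM per the authors' deposited table (q = 0.152), with a log2 change of 0.20 and a 95% interval of -0.12 to 0.51. Xrcc4 was the member closest to the threshold, and both intervals include changes of the size seen for Xrcc6. The log2 changes of Lig4 and Xrcc4 differed by 0.37, with a combined implied standard error of 0.23. By these errors, of which that of Xrcc4 is wider than its deposited p implies, the pair is not clearly separated. Lig4 lies on the minus strand of chromosome 8 at 9969049 to 9977686, Xrcc4 on that of chromosome 13 at 89774027 to 90089608 and Nhej1 on that of chromosome 1 at 74967139 to 75125200. The 3 pairs compared here follow known complexes and were picked after the values had been seen.

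**Figure D4:**
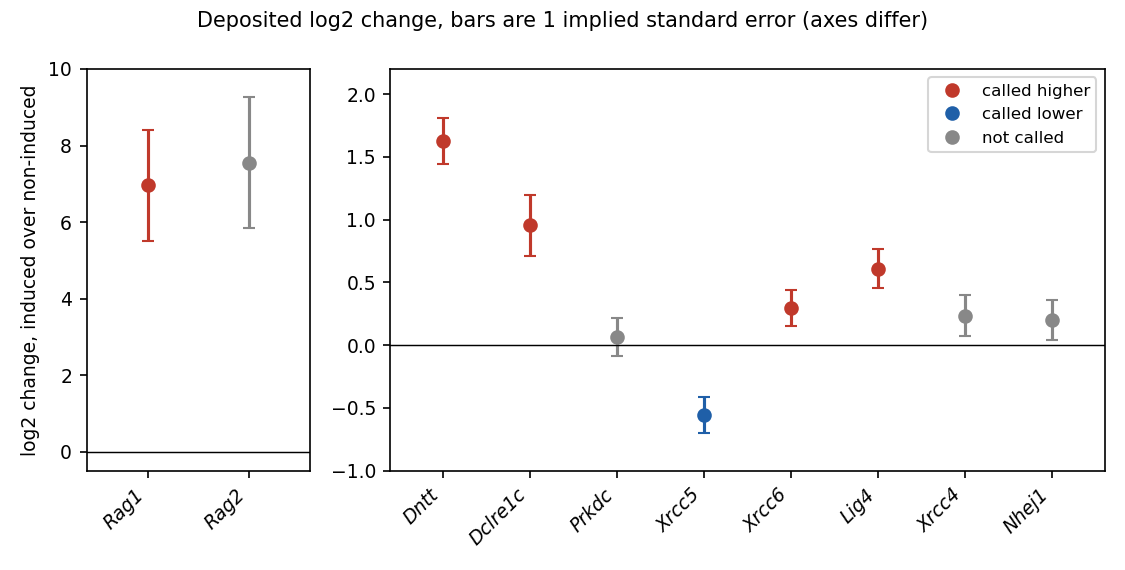
Log2 change of each member per the authors' deposited table, with bars of 1 implied standard error; the left panel has a wider scale for Rag1 and Rag2, and colours give the call. Dntt at 1.63, Dclre1c at 0.96 and Lig4 at 0.61 lie above the other end joining genes, and Xrcc5 at -0.56 lies alone below 0.

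In 7 lists of related genes, 5 of 88 tested genes were called with a difference of at least 1.5-fold, against 4 of the 10 members and 10.2% of all tested rows. The counts that follow have no fold minimum. Without it, 35.1% of all tested rows were called, 19.0% higher and 16.1% lower. The list of accessory factors of end joining held the end-processing enzymes, among others, and also counted Xrcc1. Of its 10 tested genes 1 was higher (Polm) and 0 were lower per the authors' deposited table. In alternative end joining and resection 2 of 12 were higher and 1 lower: the replicative ligase gene Lig1 rose from 101.0 to 130.7 FPKM, the resection gene Rbbp8 rose from 23.6 to 29.5 FPKM and the ligase gene Lig3 fell from 15.1 to 12.9 FPKM per the authors' deposited table. The median log2 change of that list was 0.0091. Of 15 genes that sense and signal double-strand breaks 6 were higher and 2 lower per the authors' deposited table. Mdc1, a scaffold that binds phosphorylated H2AX, went from 9.55 to 16.0 FPKM and the ubiquitin ligase gene Rnf168 from 15.9 to 20.2 FPKM, while the kinase gene Atr (16.2 to 13.5 FPKM) and Trp53, which encodes p53 (149 to 124 FPKM), fell per the authors' deposited table. The kinase gene Atm, at 16.6 and 16.8 FPKM per the authors' deposited table, had no call (q = 0.896). Homologous recombination, which acts mainly in S and G2 phase, had 7 of 13 tested genes higher and 1 lower. Rad54l rose from 28.5 to 43.4 FPKM and Bard1, the partner of BRCA1, from 8.51 to 12.0 FPKM, while Xrcc2 fell from 6.90 to 5.49 FPKM per the authors' deposited table. Rbbp8 counts in this list too.

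Transcription factors that are described as acting on Rag1 and Rag2 rose in most cases. Of 17 tested 12 were higher and 1 lower per the authors' deposited table, beside 19.0% higher and 16.1% lower of all tested rows, with a median log2 change of 0.40. With a minimum of 1.5-fold, 1 was higher and 1 lower. The list holds both activators and repressors of the Rag genes, so its counts give no direction of action on them. Foxo1 and Foxp1, activators of the Rag genes in early B cells, went from 32.5 to 48.6 FPKM and from 35.7 to 53.6 FPKM per the authors' deposited table. Myb rose from 104 to 169 FPKM, and the repressor gene Gfi1 fell from 8.21 to 4.70 FPKM per the authors' deposited table. Its relative Gfi1b, a repressor of the Rag genes, had no call at 12.4 and 13.2 FPKM per the authors' deposited table (q = 0.511). Satb1 was listed at 0 in both groups. Among 10 partners of the RAG proteins 4 were higher and 1 lower. The DNA-bending cofactor genes Hmgb1 (146 to 188 FPKM) and Hmgb2 (116 to 145 FPKM) rose per the authors' deposited table, and so did Skp2 (17.4 to 21.8 FPKM) and Ccna2 (191 to 240 FPKM), whose products take part in the cell cycle-linked breakdown of RAG2. Hmgb1 has processed copies elsewhere in the genome that can share its fragments. Factors of chromosome looping, which bring distant gene segments together, had 5 of 12 higher and 0 lower. Among them were the cohesin gene Stag2 (log2 0.37), its loader Nipbl (0.31) and Ctcf (0.27) per the authors' deposited table. With a minimum of 1.5-fold, 0 partners of the RAG proteins and 0 looping factors were called. The same held with the test statistics read as normal deviates.

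Over these 7 lists, each gene counted once, 42 of 88 tested genes were called, 36 higher and 6 lower, against the 35.1% of all tested rows. With the test statistics read as normal deviates 14 were called, 13 higher and 1 lower, and 10 of the 14 were transcription factors of the Rag genes. By that reading 6 members were called, 5 higher and 1 lower, with Rag2 in place of Xrcc6. The deposited p of Rag2 does not match that reading. Of all tested rows the same reading called 15.1%, 8.97% higher and 6.16% lower.

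**Figure D5:**
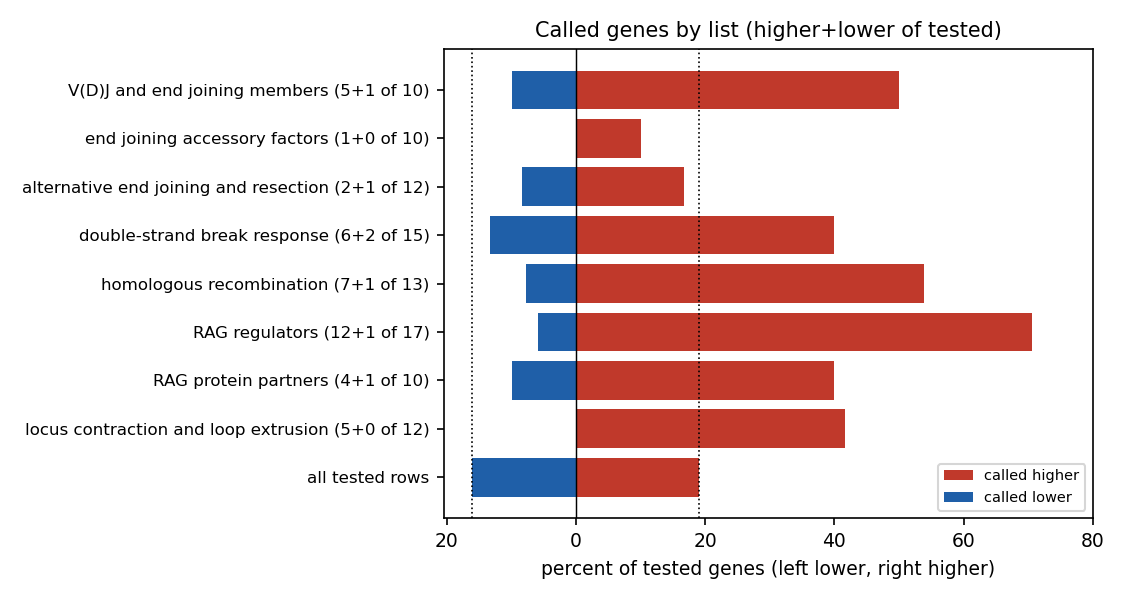
Share of tested genes called higher (right, red) and lower (left, blue) per the authors' deposited table, for the 10 members, 7 related lists and all tested rows; dotted lines mark the shares of all tested rows, 19.0% and 16.1%. Counts of higher and lower genes of those tested stand beside each name, and the accessory factors of end joining, with 1 of 10, have the lowest share called.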

How the data were processed

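Stranded mRNA libraries of 3 non-induced and 3 induced samples were compared. Per the submitters' processing notes, reads were processed with Trim Galore (0.2.8.1), TopHat2 (version 2.0.9), Cufflinks, and Cuffdiff (version 2.1.1), with build mm10. The sources used here name neither the annotation nor the strand setting of the counting. The authors deposited 1 FPKM value per gene and group, with a p-value, a q-value, a log2 fold change and a score (the test statistic) per row. Separate cultures are not named in the labels, so the libraries behind the p-values may be technical replicates.

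No test per gene could be made here, since the table has no value per library. Calls are the authors' q-value under 0.05, adjusted over 10657 tested rows. Adjusted p-values computed here used the Benjamini-Hochberg method, tested on simulated data. Fragments were estimated from FPKM, transcript length and the FPKM step worth 1 fragment, found in genes with 1 annotated transcript; 72.0% and 66.4% of the low values lay near whole steps, against 30% for evenly spread values, so depth is approximate and that of single libraries is unknown. Exact counting intervals are Clopper-Pearson. Gene positions are from GENCODE M21 and promoters from RefSeq GRCm38.p6. Python 3.11.15, pandas 2.3.3 and scipy 1.17.1 were used.

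The members and 12 further lists were chosen with earlier results of these data known. All members are named; of each list, up to 4 called genes with the largest log2 change and at least 1 FPKM in 1 group are named, and all called genes where 3 or fewer were called. Poll, Atm, Gfi1b, Satb1 and Xrcc1 were named for their known role, after their values had been seen. Alternatives covered normal p-values, filters on mean FPKM, shared loci, a fold minimum, pseudocounts and centring.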

Additional observations from a re-analysis of the deposited data

How the results depend on the processing

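Filters and call rules leave each log2 change as deposited and can alter only its call. With the test statistics read as normal deviates, Rag2 (log2 7.55) gained a call, Xrcc6 (0.29) lost it, and the 7 related lists had 14 calls, 13 higher and 1 lower, in place of 42, 36 and 6. The call gained by Rag2 stands against its deposited Cuffdiff p of 0.0865, and the call lost by Xrcc6 against one of 0.0006. With a minimum of 1.5-fold, Xrcc5 (-0.56) and Xrcc6 (0.29) were no longer counted, which left 0 members lower, and the lists had 5 calls, 4 higher and 1 lower. Over rows with a mean of at least 5 FPKM 3 members were higher, because Rag1 and Dntt lie below that level. Rag2 and Prkdc lie below it too but had no call without the filter. Rag1 and Rag2 also lie below 1 FPKM and have no value under a filter at 1 FPKM. Without rows that share a locus, Rag2 and Dclre1c have no value and 3 genes of the lists were lower. Pseudocounts shrink changes of low genes by construction: the log2 change of Rag1 was 2.37 with 0.1 and 0.51 with 1, that of Rag2 was 3.97 and 1.37, and that of Dntt was 1.29 with 1. Centring on the median of tested rows or on upper quartiles moved each log2 change by under 0.01. No paired analysis was possible because the table has no value per library, and for the same reason no library could be left out.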
